A study of Prunus persica and Prunus armeniaca with 129 samples.

Results

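DAM3 (ppa010758m) and DAM4 (ppa011123m) are the third and the fourth copy in a tandem array of 6 DORMANCY ASSOCIATED MADS-box (DAM) genes on peach chromosome 1. They were chosen by their identifiers and are 2 of the 26872 genes counted. Both were followed in floral buds of apricot (Prunus armeniaca) and peach (Prunus persica) from the start of chilling to bud opening. They had been labelled chill-induced. DAM4 was higher at 100 than at 0 chill hours in each of the 6 genotypes in which that step could be tested. DAM3 passed the test in 1 of these 6 genotypes. Of the genotypes without a test, DAM4 was higher at 100 chill hours in A1267 but not in A2137. Chill hours rose with the date in these field-grown trees, so induction by chill itself was not tested.

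DAM genes encode MADS-box transcription factors related to Short Vegetative Phase, a repressor of flowering in Arabidopsis. In peach they are known from the evergrowing mutant, which carries a deletion across the array and does not stop growing in autumn. Winter buds pass through endodormancy, which only cold releases, and then through ecodormancy, in which they wait for warmth. The cold that a genotype needs is its chilling requirement (CR), and DAM transcripts are typically abundant in dormant Prunus buds and scarce once buds open.

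The apricot trees belonged to 4 genotypes, of which A2137 (Bakour) and A1956 (Palsteyn) bloom early and A660 (Bergeron) and A1267 (Badami) late. Their buds were sampled at 0, 100 and 400 chill hours, at the sepal visible and petal visible stages, and at 800 chill hours, when A660 and A1267 were sampled as buds and A2137 and A1956 as open flowers. The peach trees belonged to 4 genotypes from a cross of a low CR with a high CR cultivar, with a low CR in A209 and A340 and a high CR in A318 and A323. They were sampled at 0, 100 and 600 chill hours and at pre-bloom, and A318 and A323 also at 1000 chill hours. Each of the 60 apricot and 69 peach libraries came from 1 clonally propagated tree, so that the libraries of a genotype are clones, and the labels name no treatment beyond the winter's chill. Apricot groups held 3 libraries in 14 cases, 2 in 8 and 1 in 2 cases (A2137 and A1267 at 0 chill hours), and peach groups held 4 in 15 cases and 3 in 3. The p-values therefore measure the spread between clonal trees, and each phenotype rests on 2 genotypes. All libraries were taken as independent, since the labels do not say whether a tree was sampled at more than 1 time point.

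Library totals ran from 7593825 to 26253101 counts in apricot and from 494799 to 26858662 in peach. In peach, 9 libraries held less than 0.25 of the median total of 9692141 counts, 1 of them at 0 chill hours, 5 at 1000 and 3 at pre-bloom, so that low depth moved with the late time points. The paper also reports rRNA contamination in most peach libraries. It found the rRNA share to be a significant factor in their variation, without a significant interaction with genotype or time point. The rRNA share was not part of the tests here. A level of 3 counts, taken as the least that a library can show, corresponded to 0.114 to 0.395 CPM, the count scaled to a common library size, in the apricot libraries, and the peach libraries lay between 0.112 and 6.06 CPM, counting error only. DAM3 had at least 31 counts in every apricot and 10 in every peach library, and DAM4 at least 14 and 40. SEEDSTICK (STK), an ovule identity gene taken as a marker of flower tissue, was at 50.9 to 85.6 CPM in A2137 flowers and 22.6 to 33.4 CPM in A1956 flowers, and at no more than 0.730 CPM in apricot buds at 0 and 100 chill hours. Levels below are CPM after TMM normalization, and a change was called where its adjusted p-value in edgeR's quasi-likelihood test was below 0.05 over all genes tested. Because floral buds are bulk samples, fewer cells with a transcript and less transcript per cell cannot be told apart, and reads shared between the similar DAM copies make the level of each copy uncertain.

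DAM4 rose over the first 100 chill hours in A1956 and A660, the apricot genotypes with more than 1 library at 0 chill hours. In A660 it stood at 148, 127 and 158 CPM at 0 chill hours and at 273, 279.7 and 241 CPM at 100, and the groups did not overlap. The rise was 0.87 on the log2 scale (SE 0.20, adjusted p = 0.00058). In A1956 it went from 131 and 125 CPM to 235 and 233 CPM, again without overlap, a log2 change of 0.87 (SE 0.24, adjusted p = 0.0064). Of all genes tested, 14% rose in this step in A660 and 11.7% in A1956. In A1267 the single library at 0 chill hours held 225 CPM and the 3 at 100 held 321, 375 and 376 CPM, which carries no test. A2137 did not share this course: its single library at 0 chill hours was at 7.93 CPM and those at 100 at 8.20 and 5.72 CPM.

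DAM3 did not pass the test in the same apricot step. In A660 it was at 47.5, 35.1 and 37.8 CPM at 0 chill hours and at 34.8, 33.1 and 27.2 CPM at 100, so all libraries at 100 chill hours lay below all at 0 (log2 change -0.34, SE 0.20, adjusted p = 0.22). In A1956 it was at 26.9 and 23.3 CPM and then at 17.8 and 16.8 CPM (log2 change -0.53, SE 0.25, adjusted p = 0.12). The single libraries at 0 chill hours held 16 CPM in A2137 and 53.2 CPM in A1267, against 5.15 and 6.93 CPM and against 35.4, 39.6 and 39.7 CPM at 100 chill hours. In all 4 genotypes the libraries at 100 chill hours were thus lower in DAM3 than those at 0, whereas DAM4 was higher in A660, A1956 and A1267.

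**Figure D1:**
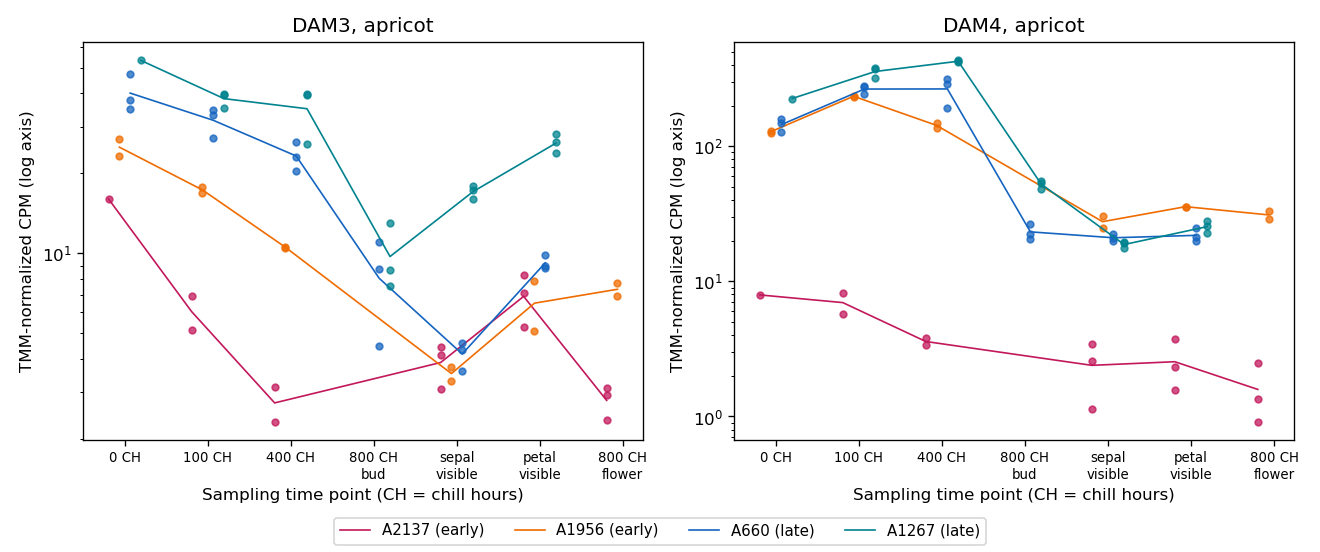
DAM3 and DAM4 in apricot, in CPM on log axes, by sampling time point; each point is 1 library and the lines join the group means of a genotype. A2137 stays between 0.914 and 8.20 CPM for DAM4 at every time point, below all libraries of the other genotypes, while its DAM3 level joins that of A1956 and A660 at sepal visible.

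In peach, DAM4 rose over the first 100 chill hours in all 4 genotypes. It was at 115, 129.6, 123 and 129.7 CPM in A209 at 0 chill hours and at 369, 247, 316 and 347 CPM at 100, a log2 change of 1.36 (SE 0.20, adjusted p = 4.4e-07). In A340 the levels were 141, 153, 139 and 139 CPM and then 298, 329, 311 and 320.2 CPM, a log2 change of 1.14 (SE 0.19, adjusted p = 1.9e-05). These are the low CR genotypes, and no library at 100 chill hours overlapped those at 0. In A318 DAM4 went from 137, 151 and 200.2 CPM to 442, 574 and 579 CPM (log2 change 1.71, SE 0.23, adjusted p = 9.5e-08). In A323 it went from 116, 183, 196 and 163 CPM to 464, 625, 635 and 499.9 CPM (log2 change 1.75, SE 0.20, adjusted p = 4.7e-10). The high CR genotypes were likewise free of overlap. Of all genes tested, 6.53% rose in this step in A209, 8.0% in A340, 6.49% in A318 and 7.83% in A323.

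DAM3 took different courses in the 4 peach genotypes over the same step. In A318 it rose from 58.7, 58.1 and 59.6 CPM to 109, 86.5 and 105 CPM, a log2 change of 0.77 (SE 0.24, adjusted p = 0.023). In A323 it was at 62.3, 64.5, 66.5 and 61.8 CPM and then at 75.1, 85.9, 121 and 82.1 CPM, which missed the threshold (log2 change 0.51, SE 0.21, adjusted p = 0.071). In A340 it was lower at 100 chill hours, at 35.3, 51.1, 45.3 and 42.1 CPM against 80.9, 62.2, 50.8 and 61 CPM (log2 change -0.56, SE 0.21, adjusted p = 0.061, and 0.031 with DESeq2 size factors). A209 spread over 30.5, 57.5, 42 and 70.05 CPM at 0 chill hours and 65.2, 69.1, 52.9 and 62.8 CPM at 100, with overlap (log2 change 0.30, SE 0.21, adjusted p = 0.52). The difference between low and high CR genotypes in this step was -0.77 for DAM3 (SE 0.22, adjusted p = 0.11, and 0.049 in DESeq2) and -0.48 for DAM4 (SE 0.20, adjusted p = 0.40), and 0.549% of all genes passed that test. The median of all genes itself moved by -0.22 in A323 and -0.18 in A318 over this step, so the rises of DAM4 in both and of DAM3 in A318 run against it. The A318 call for DAM3 was lost without A318 replicate 2 at 0 chill hours (adjusted p = 0.057) or replicate 4 at 100 (adjusted p = 0.076), and A323 passed without the shallow libraries (log2 change 0.59, adjusted p = 0.033) or without A323 replicate 1 or 4 at 100 (adjusted p = 0.030 and 0.043).

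**Figure D2:**
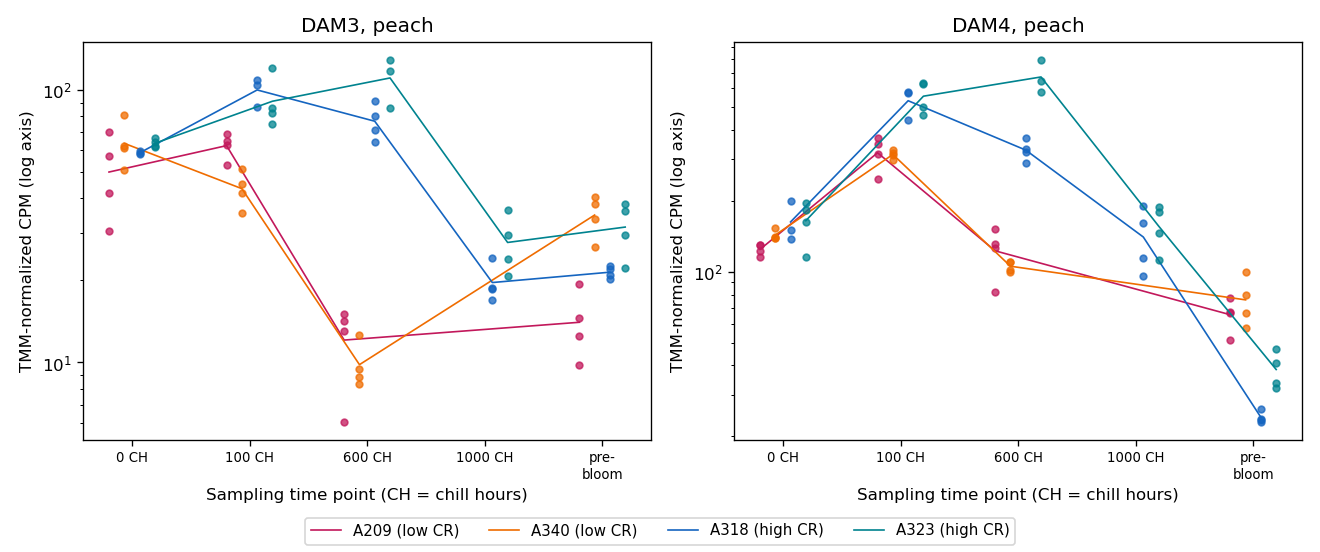
DAM3 and DAM4 in peach, in CPM on log axes, by sampling time point; each point is 1 library and the lines join the group means of a genotype. The low CR genotypes are below the high CR ones at 600 chill hours in both genes, and at pre-bloom the low CR genotypes, at 51.2 to 99.5 CPM, are above all high CR libraries in DAM4.

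Between 100 and 400 chill hours the apricot genotypes parted. In A2137 DAM3 fell from 5.15 and 6.93 CPM to 3.15 and 2.32 CPM (log2 change -1.12, SE 0.27, adjusted p = 0.00088) and DAM4 from 8.20 and 5.72 CPM to 3.80 and 3.38 CPM (log2 change -0.95, SE 0.27, adjusted p = 0.0044). Of all genes, 19.8% fell in this step in A2137, and the summed level of the pollen wall genes MS2, LAP6 and ACOS5 went from at most 0.867 CPM to at least 1891 CPM. The part of these genes' tissue in the falls was not tested. Without A2137 replicate 2 at 100 chill hours the change of DAM4 was -0.67 and was not called (adjusted p = 0.12).

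The late genotypes held DAM4 at its high level. In A660 DAM4 was at 288, 315 and 193 CPM at 400 chill hours, where the change from 100 chill hours was 0.0032 (SE 0.19, adjusted p = 1.0), with a sign that turned under other scalings. In A1267 it reached 418, 427 and 431 CPM, the highest in apricot, all above the libraries at 100 chill hours (log2 change 0.25, SE 0.19, adjusted p = 0.41). DAM3 was at 23, 20.5 and 26.2 CPM in A660 (log2 change -0.45, SE 0.20, adjusted p = 0.11) and at 39.6, 39.7 and 25.9 CPM in A1267 (log2 change -0.13, SE 0.20, adjusted p = 0.72). In A1956, DAM3 at 10.6 and 10.5 CPM and DAM4 at 136 and 149 CPM lay below their libraries at 100 chill hours, each with a log2 change of -0.72 that missed the threshold (adjusted p = 0.12 and 0.0955), though DESeq2 called that of DAM4 (adjusted p = 0.0049). Of all genes, 3.06% passed in this step in A1956, 21.6% in A660 and 20.4% in A1267.

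Tested as a difference of changes, A2137 fell more than the late genotypes between 100 and 400 chill hours in both genes, by -0.83 in DAM3 (SE 0.31, adjusted p = 0.026) and by -1.08 in DAM4 (SE 0.31, adjusted p = 0.0041), where 20.2% of all genes passed in that direction. Without A2137 replicate 3 at 100 or at 400 chill hours the former, and without replicate 2 at 100 chill hours the latter, was no longer called. A1956 did not differ from the late genotypes by this test in DAM3 (-0.43, adjusted p = 0.61) or in DAM4 (-0.84, SE 0.28, adjusted p = 0.12), where 1.38% of genes passed, and DESeq2 called the latter (adjusted p = 0.0075). Nor did A2137 and A1956 differ in DAM3 (-0.40, SE 0.37, adjusted p = 0.47) or in DAM4 (-0.23, SE 0.36, adjusted p = 0.70), with 25.1% of genes passing, so that the early genotypes were not shown to part from each other.

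The steepest fall of DAM4 came in the late apricots between 400 and 800 chill hours. In A660 the 3 libraries at 800 chill hours held 26.6, 20.7 and 22.4 CPM, and in A1267 they held 55.5, 48.5 and 53.4 CPM. These are 11.4-fold and 8.11-fold falls, or log2 changes of -3.51 (SE 0.22, adjusted p = 3.3e-16) and -3.02 (SE 0.21, adjusted p = 2.3e-14). DAM3 fell in the same step to 11, 8.70 and 4.47 CPM in A660 (log2 change -1.49, SE 0.21, adjusted p = 2.5e-07) and to 13, 7.54 and 8.68 CPM in A1267 (log2 change -1.85, SE 0.21, adjusted p = 5.5e-09). In both genotypes all libraries at 800 chill hours were below all at 400, where 21.9% of genes fell in A660 and 13.8% in A1267. The difference between the 2 genotypes in this step was -0.36 for DAM3 (adjusted p = 0.44) and 0.49 for DAM4 (adjusted p = 0.23), with 19% of genes passing.

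The pollen wall genes separated these 2 genotypes. Their summed level was 39.4 to 985 CPM in A660 at 800 chill hours and 0.295 to 1.67 CPM in A1267, and its part in the falls was not tested. The A660 library with 39.4 CPM, replicate 3, was also the lowest in DAM3, and without it the fall of DAM3 was -1.24 (adjusted p = 5.9e-06). In A1956 the fall came between 400 chill hours and sepal visible, to 3.75 and 3.31 CPM for DAM3 (log2 change -1.57, SE 0.27, adjusted p = 7.9e-06) and to 24.9 and 30.4 CPM for DAM4 (log2 change -2.37, SE 0.25, adjusted p = 5.4e-10), with 20.7% of genes falling.

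In peach the fall came by 600 chill hours in the low CR genotypes. In A209 DAM3 dropped to 15, 13, 6.06 and 14.2 CPM (log2 change -2.39, SE 0.22, adjusted p = 5.7e-13) and DAM4 to 131, 127, 82.0 and 151 CPM (log2 change -1.38, SE 0.20, adjusted p = 5.4e-08). In A340 DAM3 dropped to 9.46, 12.6, 8.36 and 8.85 CPM (log2 change -2.14, SE 0.22, adjusted p = 1e-11) and DAM4 to 100.2, 109.6, 102 and 110.1 CPM (log2 change -1.58, SE 0.20, adjusted p = 2.2e-09). No library overlapped with those at 100 chill hours, and 11.4% of genes fell in A209 and 12.6% in A340. DAM3 at 600 chill hours lay below its level at 0 in every low CR library, whereas DAM4 overlapped its level at 0 chill hours in A209 and lay below it in A340. The pollen wall sum was 332 to 2951 CPM in A209 and 18.4 to 1848 CPM in A340 at 600 chill hours, against at most 23.9 CPM in both at 100, and its part in the falls was not tested.

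In the high CR genotypes both genes were still high at 600 chill hours. DAM4 in A323 was at 788, 642 and 582 CPM, of which the first 2 are the highest levels in peach, and DAM3 at 128, 118 and 86.0 CPM. Neither differed from 100 chill hours by the test (log2 change 0.28 for DAM3, SE 0.22, adjusted p = 0.45, and 0.27 for DAM4, SE 0.21, adjusted p = 0.43), where 13.5% of genes passed. In A318 DAM4 had begun to fall, at 289, 368, 323.1 and 333 CPM (log2 change -0.70, SE 0.21, adjusted p = 0.016), where 6.73% of genes fell. DAM3 in A318 was at 71.5, 80.4, 90.9 and 64.5 CPM (log2 change -0.38, SE 0.22, adjusted p = 0.29). The DAM4 call in A318 was lost without replicate 3 or 4 at 100 chill hours (adjusted p = 0.075 and 0.084).

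Both genes then fell in the high CR genotypes between 600 and 1000 chill hours. In A323 DAM4 came down to 179, 189, 112 and 146 CPM (log2 change -2.102, SE 0.21, adjusted p = 7.7e-11) and DAM3 to 23.9, 29.3, 20.8 and 36.3 CPM (log2 change -2.03, SE 0.23, adjusted p = 2.9e-09). In A318 DAM4 came down to 191, 114, 160.4 and 96.1 CPM (log2 change -1.24, SE 0.20, adjusted p = 4.7e-06) and DAM3 to 18.7, 18.8, 24.1 and 17.0 CPM (log2 change -1.97, SE 0.24, adjusted p = 1.2e-08). No library at 1000 chill hours overlapped those at 600, and 8.83% of genes fell in A323 and 11.7% in A318. The 3 A318 libraries with the higher DAM4 levels were those of low depth, and without the shallow libraries the A318 change in DAM4 was -1.87, a value that rests on the single library left at 1000 chill hours.

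From sepal visible to petal visible DAM3 rose in all 4 apricot genotypes. In A660 it stood at 3.61, 4.59 and 4.35 CPM at sepal visible and at 9.86, 8.81 and 8.97 CPM at petal visible (log2 change 1.14, SE 0.22, adjusted p = 5.7e-05). In A2137 it went from 4.15, 4.43 and 3.08 CPM to 8.28, 5.29 and 7.10 CPM (log2 change 0.83, SE 0.23, adjusted p = 0.0027). All petal visible libraries of these genotypes were above all at sepal visible. In A1956 DAM3 went from 3.75 and 3.31 CPM to 5.12 and 7.87 CPM (log2 change 0.87, SE 0.28, adjusted p = 0.010), and in A1267 from 17.9, 17.3 and 16.1 CPM to 23.8, 26.2 and 28.1 CPM (log2 change 0.61, SE 0.20, adjusted p = 0.018). Of all genes, 21.2% rose in this step in A2137, 20.7% in A1956, 21.4% in A660 and 16.8% in A1267, so that each single call is a common event, and the 4 genotypes share 1 direction. Without A1956 replicate 2 at petal visible the rise there was 0.55 (adjusted p = 0.22), without replicate 2 at sepal visible it was 0.78 (adjusted p = 0.075), and the A1267 call was lost without replicate 2 or 3 at petal visible or replicate 3 at sepal visible (adjusted p = 0.052, 0.072 and 0.066).

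DAM4 did not pass in this step in any apricot genotype by edgeR. The log2 changes were 0.03 in A2137, 0.37 in A1956, 0.06 in A660 and 0.44 in A1267, with adjusted p from 0.098 to 0.94. At petal visible DAM4 was at 24.7, 21.3 and 19.8 CPM in A660, against 19.9, 20.8 and 22.3 CPM at sepal visible, with overlap. In A1267 it was at 25.5, 22.9 and 27.8 CPM against 17.5, 19.6 and 19.1 CPM, and in A1956 at 35.8 and 35.6 CPM against 24.9 and 30.4 CPM, without overlap in either. At an unadjusted p below 0.05, 1 of the 4 passed, that of A1267, and DESeq2 called A1267 and A1956. The difference between A1267 and A660 in this step was -0.53 for DAM3 (adjusted p = 0.27) and 0.38 for DAM4 (adjusted p = 0.46), with 13.1% of genes passing.

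The step from 800 chill hours to sepal visible set A1267 apart from A660. In A1267 DAM3 rose from 13, 7.54 and 8.68 CPM to 17.9, 17.3 and 16.1 CPM (log2 change 0.82, SE 0.21, adjusted p = 0.00077), while DAM4 fell from 55.5, 48.5 and 53.4 CPM to 17.5, 19.6 and 19.1 CPM (log2 change -1.48, SE 0.20, adjusted p = 4.7e-08). In A660 DAM3 fell from 11, 8.70 and 4.47 CPM to 3.61, 4.59 and 4.35 CPM (log2 change -0.98, SE 0.23, adjusted p = 0.00031), while DAM4, already low, changed by -0.15 (SE 0.21, adjusted p = 0.56). The members thus moved in opposite directions in A1267, in a step in which 32% of all genes rose and 30.7% fell there, and 26.9% fell in A660. The difference between the genotypes in this step was 1.79 for DAM3 (SE 0.31, adjusted p = 8.8e-06) and -1.34 for DAM4 (SE 0.29, adjusted p = 0.00024), where 21.7% of genes were higher and 19.8% lower in A1267 relative to A660. Without A660 replicate 3 at 800 chill hours the values were 2.08 and -1.29, and both were still called.

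A2137 passed from 400 chill hours to sepal visible with DAM3 at 4.15, 4.43 and 3.08 CPM (log2 change 0.48, SE 0.26, adjusted p = 0.14) and DAM4 at 1.14, 2.59 and 3.45 CPM (log2 change -0.56, SE 0.27, adjusted p = 0.10), where 37.3% of genes passed. Without A2137 replicate 3 at sepal visible the change in DAM4 was -0.91 and was called (adjusted p = 0.016). From petal visible to the open flower, DAM3 in A2137 fell to 2.35, 2.92 and 3.11 CPM (log2 change -1.31, SE 0.23, adjusted p = 6.1e-06). DAM4 went from 3.72, 1.57 and 2.33 CPM to 1.34, 0.914 and 2.505 CPM with overlap (log2 change -0.68, SE 0.28, adjusted p = 0.035), where 26.9% of genes fell. That call for DAM4 rests on 15 to 47 counts per library and was lost without any of 4 of the 6 libraries, with log2 changes from -1.13 to -0.37 over all 6. In A1956 neither gene passed from petal visible to the open flower, with DAM3 at 7.73 and 6.93 CPM (log2 change 0.18, adjusted p = 0.69) and DAM4 at 33 and 29 CPM (log2 change -0.20, adjusted p = 0.61), where 24.8% of genes passed.

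In peach, DAM4 fell on to pre-bloom in 3 of the 4 genotypes by the test and DAM3 in 0 of 4, with 0 at an unadjusted p below 0.05 and 0 by DESeq2. DAM4 in A318 reached 26.2, 23.1, 23.7 and 23.4 CPM (log2 change from 1000 chill hours -2.53, SE 0.21, adjusted p = 1.9e-14, and a change of -1.93 from the single library left at 1000 chill hours without the shallow ones). In A323 it reached 46.9, 32.2, 41.0 and 33.7 CPM (log2 change -2.02, SE 0.20, adjusted p = 8.7e-12). In A209 it reached 77.4, 51.2, 67.1 and 66.9 CPM (log2 change from 600 chill hours -0.92, SE 0.20, adjusted p = 6e-04). In A340 it reached 99.5, 79.4, 57.8 and 67 CPM, below all libraries at 600 chill hours, which missed the threshold (log2 change -0.48, SE 0.19, adjusted p = 0.068) but passed without the shallow replicate 1 at pre-bloom (-0.59, adjusted p = 0.039) and missed it without all shallow libraries (-0.59, adjusted p = 0.083). Of all genes, 12.9% fell in A318, 9.17% in A323 and 9.41% in A209.

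DAM3 rose to pre-bloom in A340, from 8.36 to 12.6 CPM at 600 chill hours to 38.3, 40.6, 33.7 and 26.5 CPM, a 3.53-fold rise (log2 change 1.82, SE 0.22, adjusted p = 1.4e-08), where 9.67% of genes rose. Replicates 1 and 4 of A340 at pre-bloom were shallow, and without the shallow libraries the rise was 1.95 (adjusted p = 3.9e-07). In A209 DAM3 was at 19.4, 9.78, 14.6 and 12.5 CPM (log2 change 0.13, SE 0.24, adjusted p = 0.77). In A318 it was at 22, 22.5, 21 and 20.3 CPM (log2 change 0.13, SE 0.23, adjusted p = 0.70), and in A323 at 22.3, 29.3, 38.1 and 35.9 CPM (log2 change 0.21, SE 0.22, adjusted p = 0.54). All 4 changes were above 0, and the median of all genes moved by -0.16 in A340. The low CR genotypes differed from each other here, with DAM3 higher by 1.42 in A340 than in A209 (SE 0.24, adjusted p = 0.00021), where 0.864% of all genes were higher.

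**Figure D3:**
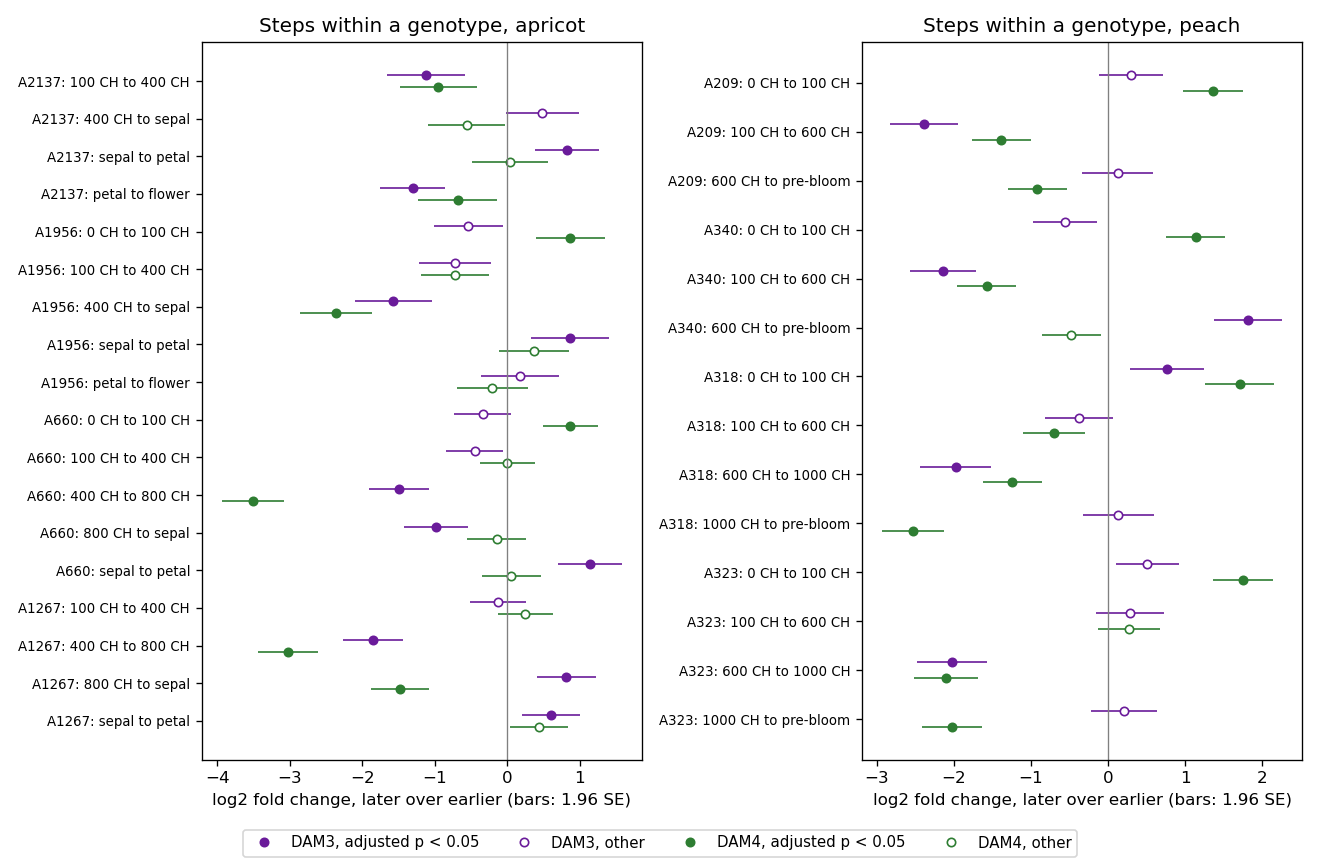
Log2 fold changes of DAM3 and DAM4 in each tested step within a genotype, later over earlier time point, with bars of 1.96 SE; filled points passed at an adjusted p below 0.05 and open points did not. DAM4 is above 0 in all 6 steps from 0 to 100 chill hours, and DAM3 is above 0 in the 4 steps from sepal to petal visible.

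Between genotypes at 1 time point, A2137 stood apart in DAM4 throughout, and these levels are given as a description. Its 14 libraries ranged from 0.914 to 8.20 CPM with a median of 2.98 CPM. The medians of the other apricots were 80.4 CPM in A1956 (24.9 to 235 CPM), 77.0 CPM in A660 (19.8 to 315 CPM) and 54.4 CPM in A1267 (17.5 to 431 CPM), so that no library of A2137 reached the lowest of theirs. The reads of all apricots were aligned to the peach genome, and differences in sequence between a genotype and peach were not analysed here.

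DAM3 in A2137 was not set apart in this way. It was lower than in A1956 at 100 chill hours (log2 difference -1.52, SE 0.26, adjusted p = 1.2e-05), at 400 chill hours (-1.93, SE 0.27, adjusted p = 2.9e-07) and in the open flower (-1.39, SE 0.26, adjusted p = 2.4e-05). The shares of all genes that were lower were 17.1%, 21% and 20.6%. At sepal visible the difference was 0.13 (SE 0.26, adjusted p = 0.75) and at petal visible 0.09 (SE 0.25, adjusted p = 0.85), where 24.8% and 21.1% of genes passed. At those stages the DAM3 levels of A2137 and A1956 overlapped, while DAM4 was at 1.14 to 3.72 CPM in A2137 and 24.9 to 35.8 CPM in A1956.

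A1956 was lower than the late genotypes in DAM3 at each of the 4 time points tested. The log2 differences were -1.01 at 100 chill hours (SE 0.21, adjusted p = 0.0011), -1.43 at 400 (SE 0.22, adjusted p = 6.5e-06), -1.25 at sepal visible (SE 0.24, adjusted p = 0.00015) and -1.26 at petal visible (SE 0.23, adjusted p = 8.4e-05). The shares of all genes that were lower were 4.36%, 8.98%, 6.19% and 8.17%. Sepal and petal visible were collected by stage and not by date. In all comparisons of apricot genotypes at these stages, genotype and date therefore cannot be told apart. At sepal visible the 2 late genotypes were unlike, with DAM3 at 3.75 and 3.31 CPM in A1956, 3.61 to 4.59 CPM in A660 and 16.1 to 17.9 CPM in A1267, so that A1956 overlapped A660. At 100 chill hours the call was lost without A1956 replicate 2 (log2 difference -0.97, adjusted p = 0.058).

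DAM4 in A1956 took another course against the late genotypes. It was not called at 100 chill hours (log2 difference -0.39, SE 0.20, adjusted p = 0.23) and was lower at 400 (-1.24, SE 0.21, adjusted p = 3.2e-05). It was then not called at sepal visible (0.48, SE 0.20, adjusted p = 0.091) and higher at petal visible (0.60, SE 0.20, adjusted p = 0.026), where 11.8% of genes were higher. The petal visible call was lost without any of 5 of the 8 libraries, A1956 replicates 1 and 2, A1267 replicate 2 and A660 replicates 2 and 3, with adjusted p up to 0.18.

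The late genotypes differed from each other in a time-dependent way. A1267 was above A660 in DAM4 at 400 chill hours (log2 difference 0.68, SE 0.20, adjusted p = 0.010) and at 800 (1.17, SE 0.20, adjusted p = 9.1e-06), but not by edgeR at 100 (0.43, SE 0.20, adjusted p = 0.099, and 0.014 in DESeq2), sepal visible (-0.17, SE 0.20, adjusted p = 0.54) or petal visible (0.21, SE 0.21, adjusted p = 0.47). In DAM3 it was 4.08-fold higher at sepal visible (log2 difference 2.03, SE 0.22, adjusted p = 1.1e-09) and 2.82-fold higher at petal visible (1.495, SE 0.21, adjusted p = 4.4e-07). DAM3 was also higher at 400 chill hours (0.59, SE 0.20, adjusted p = 0.032), with overlap and lost without any of 4 of the 6 libraries, and not called at 100 (0.27, SE 0.20, adjusted p = 0.34) or 800 (0.23, SE 0.21, adjusted p = 0.39). The 400 chill hour call in DAM4 was lost without A660 replicate 3 (0.50, adjusted p = 0.089). Of all genes, 8.94% were higher in A1267 at 400 chill hours, 21.2% at 800, 22% at sepal visible and 16.7% at petal visible, and 26.2% differed at 100.

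In peach, low and high CR genotypes were not told apart at 0 chill hours, at a log2 difference of -0.10 in DAM3 (SE 0.16, adjusted p = 0.88) and -0.30 in DAM4 (SE 0.14, adjusted p = 0.39), where 1.97% of genes passed. At 100 chill hours both genes were lower in low CR, DAM3 by -0.87 (SE 0.15, adjusted p = 5.7e-05) and DAM4 by -0.78 (SE 0.14, adjusted p = 8.8e-05), where 2.91% of all genes were lower. In A340, a low CR genotype, DAM3 was by then lower than at 0 chill hours, which missed the threshold in edgeR (log2 change -0.56, adjusted p = 0.061). At 600 chill hours the log2 differences were -3.09 in DAM3 (SE 0.16, adjusted p = 5.5e-23) and -2.04 in DAM4 (SE 0.14, adjusted p = 3e-18), or 8.52-fold and 4.13-fold, where 19.5% of genes were lower. The change between 100 and 600 chill hours differed between the phenotypes by -2.22 in DAM3 (SE 0.22, adjusted p = 5.6e-12) and -1.27 in DAM4 (SE 0.20, adjusted p = 1.1e-06), where 11.9% of genes passed in that direction.

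At pre-bloom the order of DAM4 turned. The low CR libraries, at 51.2 to 99.5 CPM, all exceeded the high CR libraries, at 23.1 to 46.9 CPM (log2 difference 1.21, SE 0.14, adjusted p = 5.8e-10), where 13.9% of genes were higher. DAM3 was not told apart there (-0.29, SE 0.16, adjusted p = 0.16). Low CR buds were collected at pre-bloom earlier in the season than high CR buds, so phenotype and date cannot be told apart. The median of all genes was -0.11 in this comparison, and without the shallow libraries the difference in DAM4 was 1.16.

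Within the high CR phenotype A323 was above A318 in DAM4 at 600 chill hours (log2 difference 1.03, SE 0.21, adjusted p = 0.0037), without overlap and where 0.106% of all genes were higher, and at pre-bloom (0.67, SE 0.20, adjusted p = 0.022), where 1.92% were higher. The former was lost without A323 replicate 1 at 600 chill hours (0.90, adjusted p = 0.093), and the latter without any of 4 of the 8 libraries (adjusted p up to 0.097). The paper dates pre-bloom sampling earlier in A318 than in A323, so genotype and date cannot be told apart at that stage. In DAM3 no difference between them was called, with log2 differences of 0.12 at 0 chill hours, -0.14 at 100, 0.53 at 600, 0.48 at 1000 and 0.56 at pre-bloom. In DAM4 the differences were 0.02 at 0 chill hours, 0.06 at 100 and 0.17 at 1000 and were not called. At 0, 100 and 1000 chill hours 0.0399%, 0.128% and 1.01% of all genes passed between these genotypes. Between A340 and A209, which differed in DAM3 at pre-bloom as given above, neither gene passed at 0, 100 or 600 chill hours, where 0.394%, 0.735% and 1.28% of genes passed, and DAM4 did not pass at pre-bloom (0.22, SE 0.20, adjusted p = 0.60).

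The ratio of DAM4 to DAM3 counts in a library sums up how the pair came apart, and it is given as a description, since it also depends on the length and copy-specific sequence of each gene. In A1956, A660 and A1267 it went from 3.12 to 5.36 at 0 chill hours to 7.85 to 13.8 at 100 and 7.35 to 16.6 at 400. At petal visible it had dropped to 0.876 to 1.07 in A1267 and 2.20 to 2.49 in A660. In A1956 it had dropped to 4.50 to 6.95, from 12.8 to 14.2 at 400 chill hours. In A2137 it ran from 0.282 to 1.59 over all 14 libraries. In peach it went from 1.74 to 3.76 at 0 chill hours to 3.56 to 8.42 at 100. At 600 chill hours it was 8.64 to 13.5 in A209 and 8.68 to 12.4 in A340, but 3.55 to 5.16 in A318 and 5.45 to 6.76 in A323. At pre-bloom it was 1.02 to 1.19 in A318, 0.938 to 2.099 in A323, 1.71 to 2.59 in A340 and 3.86 to 5.33 in A209. In peach the highest ratios were thus reached at 600 chill hours in low CR genotypes, where DAM3 had fallen by more than DAM4, and the lowest at pre-bloom in high CR genotypes, where DAM4 was called down and DAM3 was not.

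**Figure D4:**
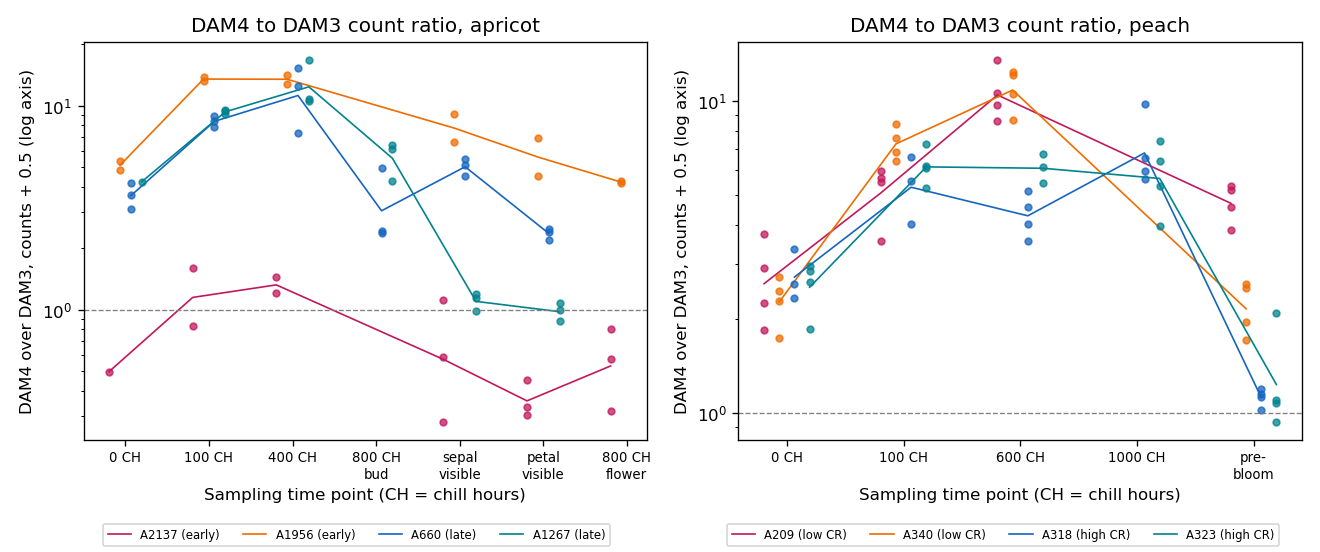
Ratio of DAM4 to DAM3 counts in each library, after adding 0.5 to both counts, on log axes, by sampling time point; points are libraries, lines join the geometric means of a genotype, and the dashed line marks a ratio of 1 as a visual guide. A2137 is at 0.282 to 1.59, and the high CR peaches come down to 0.938 to 2.099 at pre-bloom.

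The other copies of the array were set beside the pair as a list of 4 genes. Over the 6 tested steps from 0 to 100 chill hours, in which DAM4 rose each time, DAM1, DAM2, DAM5 and DAM6 gave 24 tests, of which 1 was called up and 2 down, with a median log2 change of -0.34, against -0.22 to -0.02 for the median of all genes, of which 6.49% to 14% rose and 7.43% to 13.9% fell in a step. The call up was DAM5 in A323 (1.21, adjusted p = 0.04999) and the calls down were DAM1 (-1.38) and DAM2 (-3.13) in A323. Over these steps DAM2 had a median log2 change of -1.55 with 1 call in 6 tests. A missing call in DAM2 therefore does not show a steady level, and the levels of DAM1 and DAM2 are not given here. Over the 9 steps in which both DAM3 and DAM4 were called down, a set picked for those falls, DAM5 was called down in 8, DAM6 in 7, DAM1 in 5 and DAM2 in 3, where 8.83% to 26.9% of all genes fell and 8.56% to 28.7% rose in a step. DAM1 was called up in 1 of these steps, from petal visible to the flower in A2137 (2.25, adjusted p = 0.026).

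From sepal to petal visible, where 16.8% to 21.4% of all genes rose and 16.2% to 23.6% fell, DAM5 rose in A2137 (0.93, adjusted p = 0.0076), A660 (0.69, adjusted p = 0.045) and A1267 (0.81, adjusted p = 0.0073), and in A1956 it changed by 0.72 (adjusted p = 0.097). DAM6 was not called in that step in any genotype, and DAM1 fell in A1956 (-5.10, adjusted p = 0.0079). From 600 chill hours to pre-bloom in A340, where DAM3 rose, DAM5 rose by 4.09 (adjusted p = 5.7e-08) and DAM6 by 3.37 (adjusted p = 1.2e-06). In A318 and A323, where DAM4 fell to pre-bloom and DAM3 was not called, DAM5 fell by 3.20 and 2.04 and DAM6 by 2.90 and 2.12, on the log2 scale.

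Chromatin and hormone genes were taken from the study's discussion of these samples, so their directions are no independent evidence. The chromatin list held histone H3K4 methylation genes (Prupe.2G042400 and Prupe.1G177800) and small RNA silencing genes (Prupe.4G091400, Prupe.6G153800 and Prupe.1G533300). Over the 9 steps in which DAM3 and DAM4 fell, these 5 gave 45 tests with 4 calls up and 17 down, at a median log2 change of -0.40, against 0.00 to 0.08 for all genes, of which 8.56% to 28.7% rose and 8.83% to 26.9% fell in a step. Over the 6 steps from 0 to 100 chill hours they gave 3 calls up, all of Prupe.4G091400 in peach (2.20 in A318, 1.90 in A323 and 1.23 in A340), and 1 down in 30 tests. From sepal to petal visible, when DAM3 rose, they gave 1 call up and 5 down in 20 tests, 3 of them of Prupe.1G533300. To pre-bloom they gave 5 calls up and 3 down in 20 tests. Of all genes, 6.49% to 14% rose and 7.43% to 13.9% fell in the steps from 0 to 100 chill hours, 16.8% to 21.4% and 16.2% to 23.6% in those from sepal to petal visible, and 6.43% to 12.8% and 9.17% to 12.9% in those to pre-bloom.

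Gibberellin 2-oxidases inactivate the growth hormone gibberellin. Over the 9 steps Prupe.4G080700 was called down in 6 and up in 1, and Prupe.4G204600 was called down in 6. To pre-bloom each was called up in 1 of 4 genotypes and down in 2. The calls up were in A340, where DAM3 rose, by 2.88 and 2.05. The MYB transcription factor genes went the other way over the 9 steps, with MYB102 (Prupe.4G192000) called up in 9 and MYB108 (Prupe.1G111700) in 6 and neither down. Over the 6 steps from 0 to 100 chill hours the 4 hormone genes gave 2 calls up and 3 down in 24 tests, from sepal to petal visible 1 up and 5 down in 16, and to pre-bloom 3 up and 8 down in 16. The pollen wall genes (MS2, LAP6 and ACOS5) and STK together gave 21 calls up and 0 down in 36 tests over the 9 steps. From 0 to 100 chill hours they gave 0 calls in 24 tests. They gave 2 calls up and 1 down in 16 tests from sepal to petal visible, and 0 up and 10 down in 16 to pre-bloom. The calls down to pre-bloom were 4 of MS2, 3 of LAP6 and 3 of ACOS5, while STK had 0 and a median log2 change of 0.45. In open flowers the pollen wall sum was 0.542 to 0.914 CPM in A2137 and 3.13 to 5.19 CPM in A1956, so these genes do not mark flower tissue as such. The shares of all genes called in these classes of steps are those given for the chromatin list, and the 5 of 24 hormone calls from 0 to 100 chill hours are near that background. All these steps share libraries with the tests of the pair.

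Genes outside the array whose group means on the log2(CPM + 0.5) scale ran most like the pair were found by Pearson's r, a description over 24 groups in apricot and 18 in peach that share libraries and depth. For DAM3 in apricot they were Prupe.1G084300 (r = 0.876), Prupe.1G413800 (0.857) and Prupe.3G301600 (0.854), and for DAM4 Prupe.4G156300 (0.918), Prupe.6G265500 (0.912) and Prupe.1G333100 (0.909). The last 3 are annotated in the study as an NAD(H) kinase, a copper transporter and an F-box protein. For DAM3 in peach they were Prupe.3G257600 (0.934), Prupe.3G087600 (0.929), annotated as a cystathionine beta-synthase protein, and Prupe.7G079700 (0.921), and for DAM4 Prupe.8G252300 (0.968), Prupe.1G586000 (0.962) and Prupe.3G265400 (0.955). No gene was among the 3 nearest in both species. The pair itself had r = 0.792 in apricot and 0.696 in peach, and other copies were nearer. In apricot DAM5 (0.864), DAM2 (0.8291) and DAM6 (0.813) were nearer to DAM3 than DAM4 was, and in peach DAM6 (0.864) and DAM5 (0.825) were. By r, DAM6 (0.719) and DAM5 (0.702) were also nearer to DAM4 than DAM3 was in peach, which held for none of the other 4 copies in apricot. By Spearman's rho this order turned in peach. There DAM3 (0.8225) was nearer to DAM4 than DAM5 (0.7998) and DAM6 (0.7853) were, and DAM4 was nearer to DAM3 than DAM5 (0.806) was. Of the 12 genes outside the array, 6 would not have been among the 3 nearest in their case by Spearman's rho.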

How the data were processed

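The authors trimmed the reads, removed rRNA reads from the peach libraries, aligned both species to the peach genome with STAR (2.5.3a per the submitters' notes) and counted reads on exons with HTSeq, taking the 6 DAM genes from the first genome assembly's annotation; strand setting and the treatment of reads shared by copies are not given in the sources used here. They deposited raw counts for 26872 genes in 129 tables, with 0 columns left unused. In R 4.3.3, edgeR 4.0.16 (limma 3.58.1) filtered low counts (minimum 10, total 15), applied TMM and fitted 1 quasi-likelihood model per species with a group for each genotype and time point; p-values were two-sided and Benjamini-Hochberg adjusted over 22472 (apricot) or 22574 (peach) genes, and called at 0.05. The standard error is the absolute log2 change over the square root of F. Steps from or to a group of 1 library carry no test. Named were the members, the listed genes and, for each member and species, the 3 genes most like it. The members, lists and tests were chosen with earlier results of these data known. 1 listed hormone gene was not analysed here.

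Alternatives were DESeq2 1.42.0 (its Wald test, or edgeR with its size factors), testing every gene without a count minimum, a block for the replicate number, fits without each library in turn or without the shallow ones, a pseudocount of 1 in the ratio, and Spearman's rho. The block and leave-one-out fits kept the genes and trended dispersion of the fit to all libraries. No 2 libraries of a group agreed within sampling noise (chi-square per gene at least 7.75 for apricot and 3.43 for peach). The fits were tested on simulated data. Scripts ran in Python 3.11.15, with figures by matplotlib 3.10.9. No sequences or gene lengths were at hand, so the ratio of DAM4 to DAM3 counts was compared between libraries only, and does not say which gene was the more abundant.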

Additional observations from a re-analysis of the deposited data

Results flagged for a closer look

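DAM4 in A340 at 0 chill hours had 1 library, replicate 2, at 153 CPM, apart from the others at 139.2, 139.3 and 141 CPM; 1 of the 30 sets of 4 peach libraries looked at (both genes) was set apart in this way, and chance gives about 1 in 20.

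The change from 100 to 600 chill hours differed between low and high CR peach by -2.22 in DAM3 and by -1.27 in DAM4. From 800 chill hours to sepal visible, A1267 differed from A660 by 1.79 in DAM3 and by -1.34 in DAM4. From 100 to 400 chill hours, A2137 differed from the late apricots by -0.83 in DAM3 and by -1.08 in DAM4. These 6 of the 16 differences of changes computed passed at an adjusted p below 0.05 in edgeR.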

How the results depend on the processing

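Over all alternatives, call and sign were both kept in 123 of 133 results with DESeq2's Wald test, 130 with its size factors, 132 without the low-count filter, 127 with the replicate block, 57 of 58 without shallow libraries and 1031 of 1093 leave-one-out values. In the last 2 settings a lone library left in a group is assumed to vary like the others. Steps without a test are among these results and were judged by the size of their shift alone. The cause of the changes below was not tested. Size factors moved the median of all genes by up to 0.13, and by over 0.1 in 2 of 69 contrasts.

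By the Wald test, DAM4 became called for A1956 against late apricots at sepal visible (0.44), from sepal to petal visible in A1267 (0.49) and A1956 (0.45) and from 100 to 400 chill hours in A1956 (-0.71). DAM3 from 0 to 100 chill hours became called in A340 (-0.64 by Wald test and -0.64 with size factors) and in A323 (0.59 without the filter and 0.59 without shallow libraries). The sign turned for DAM4 from 100 to 400 chill hours in A660 (-0.0086 Wald test, -0.0089 size factors, -0.0037 replicate block), between A323 and A318 at 0 (-0.027 and -0.033) and, with the block, at 100 chill hours (-0.0018).

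Same-numbered libraries had a median correlation of deviations of 0.048 in apricot, with 42 of 128 pairs over 0.1 against 35 of 224 pairs of different number, and of 0.0031 in peach, with 16 of 116 against 50 of 349. No label ties the numbers to trees, so they were not taken as pairs in the main fit. In apricot the same-numbered pairs were more often over 0.1 than the others, and whether they came from the same trees is not known. With the replicate block, DAM4 between low and high CR at 100 chill hours was -0.63 (adjusted p = 0.058), and 3 differences within a phenotype were also no longer called (DAM4 A323 against A318 at 600 chill hours and pre-bloom, 1.01 and 0.63, and DAM3 A340 against A209 at pre-bloom, 1.20).

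Leaving out 1 library each moved a call or a sign in these ranges. In DAM3 they were -1.06 to -0.96 for A1956 against late at 100 chill hours, -0.21 to 0.0047 for low against high CR at 0, -0.23 to 0.049 for A1267 from 100 to 400, 0.54 to 0.65 for A1267 and 0.55 to 1.16 for A1956 from sepal to petal visible, -0.11 to 0.50 for A1956 to the flower, -0.074 to 0.28 for A209 to pre-bloom, and 0.73 to 0.86 for A318 and 0.35 to 0.66 for A323 from 0 to 100. For A1267 against A660 at 800 they were -0.037 to 0.50 and for A2137 against A1956 at petal visible -0.18 to 0.43. In DAM4 they were 0.54 to 0.62 for A1956 against late at petal visible, -1.19 to -0.67 for A2137 from 100 to 400, -0.91 to -0.26 on to sepal visible, -0.30 to 0.38 to petal visible and -1.13 to -0.37 to the flower, -0.82 to -0.63 for A318 from 100 to 600, -0.59 to -0.36 for A340 to pre-bloom, and -0.14 to 0.19 from 100 to 400 and -0.044 to 0.11 from sepal to petal visible for A660. For the A2137 to A1956 difference from 100 to 400 they were -0.47 to 0.051, for A323 against A318 -0.11 to 0.20 at 0 and -0.034 to 0.14 at 100, and for A340 against A209 at 100 -0.12 to 0.053. With a pseudocount of 1 the ratios of all 40 replicated groups moved by less than their SD. Depth limits DAM4 in A2137 from sepal visible on, at 14 to 56 counts per library, and DAM3 in the 2 shallowest peach libraries, at 10 counts each.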
